A study of Mus musculus with 6 samples.

Results

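The cerebellins Cbln1, Cbln2, Cbln3 and Cbln4 and the C1q-like genes C1ql1, C1ql2 and C1ql3 were followed in mouse cerebellum at 6 weeks of age (6wk) and 7 days after birth (P7). All 7 genes were measured, each by a single row of the array table that its annotation assigns to that gene alone, among 17858 genes in all. Total RNA of C57BL/6 cerebellum, with no treatment listed, was hybridised to Affymetrix exon arrays, with 3 arrays at 6wk and 3 at P7. Both groups share strain and tissue, and the labels name neither sex, pooling of animals nor whether each replicate was a separate animal. P-values therefore measure the spread between these samples, which may be technical. Values are on the log2 scale as deposited, so a difference of 1 is a doubling, and array medians lay between 7.82 and 7.88 at 6wk and between 7.92 and 7.97 at P7.

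Cerebellins and C1q-like proteins are secreted and share a C1q domain, the globular fold through which they assemble into multimers. They sit in the synaptic cleft and join a presynaptic to a postsynaptic membrane protein. In the cerebellum, Cbln1 is released by granule neurons at parallel fibre synapses, where it joins neurexins on the axon to a delta glutamate receptor on the Purkinje cell. In mice, C1ql1 is made by the neurons that send climbing fibres to Purkinje cells and binds the adhesion receptor Adgrb3. In the hippocampus, C1ql2 and C1ql3 organise mossy fibre synapses together with kainate receptors.

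P7 replicate 2 stood apart from the other P7 arrays, and several members differed among the P7 arrays by as much as between the ages. Markers that define the tissue were low on that array. Gabra6, the GABA-A receptor subunit of granule neurons, read 4.91 in P7 replicate 2, and Pcp2, a Purkinje cell gene, read 6.18, both under the first quartile of that array (7.03). In P7 replicates 1 and 3, Gabra6 read 10.56 and 9.36 and Pcp2 read 9.52 and 8.75. Each member's difference between the ages is therefore given with all 6 arrays and without P7 replicate 2, and other differences are from all 6 arrays unless stated. The fit without P7 replicate 2 still holds P7 replicate 3, in which markers of tissue next to the cerebellum lay closer to replicate 2 than to replicate 1 (mean levels 7.38, 8.83 and 8.56 in P7 replicates 1, 2 and 3). In tissue samples of this kind, fewer cells of a type and less RNA per cell cannot be told apart.

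Of the 7 members, Cbln3 was higher and C1ql1 lower at 6wk than at P7 in limma's moderated test at an adjusted p under 0.05, and 5 did not pass. The same 2 genes passed without P7 replicate 2. Among all genes, 21.7% passed with all 6 arrays (8.26% higher and 13.4% lower at 6wk), and 26.8% passed without P7 replicate 2 (9.56% higher and 17.2% lower). The split by direction depended on the scaling, since 1475 genes were higher and 2395 lower as deposited, against 2097 higher and 1704 lower once array medians were set equal. The median log2 difference was -0.69 over the 7 members and -0.05 over all genes, against -0.37 and -0.04 without P7 replicate 2. The median over all genes was 0.04 once array medians were set equal. Values of 6wk and P7 arrays did not overlap for 5 members, as for 42.1% of all genes, and without P7 replicate 2 they did not overlap for 5 members, as for 54.8% of all genes. The share of members called is close to that of all genes.

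**Figure D1:**
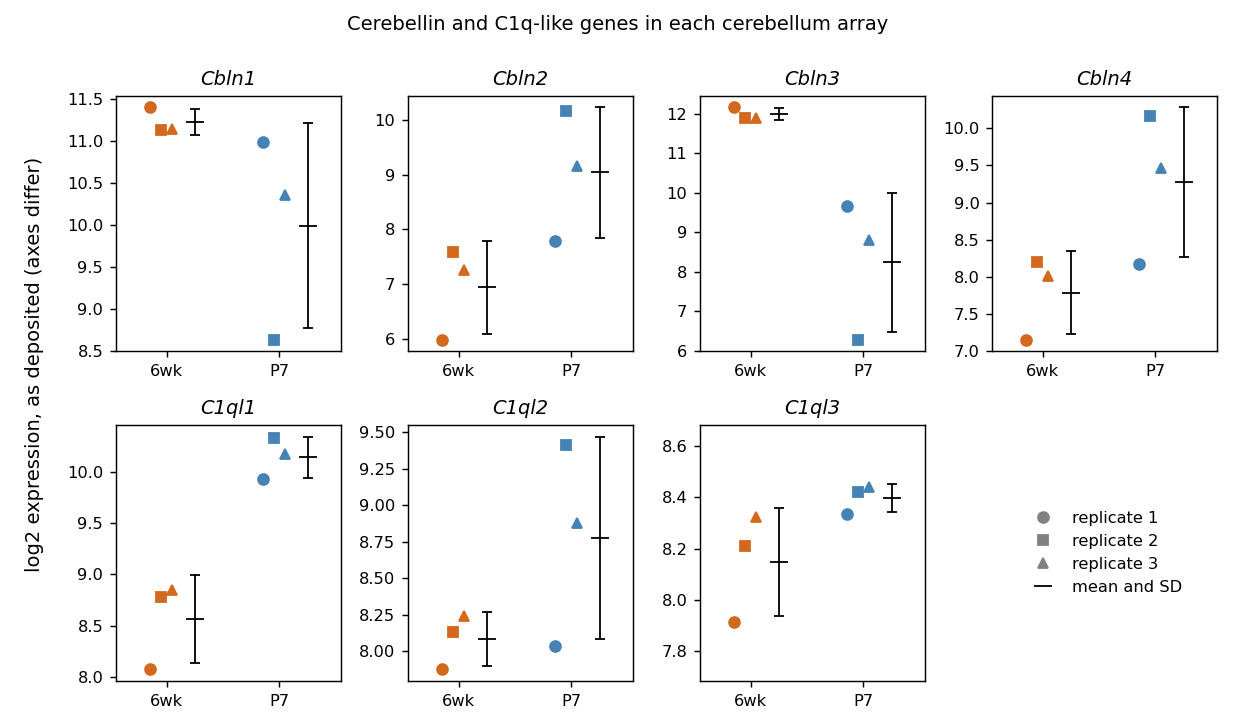
Deposited log2 expression of each member in every array, 6wk left and P7 right in each panel, with replicates by marker shape and the group mean and SD as a bar; the vertical scales differ between panels. Cbln3 lies near 12 in every 6wk array and between 6.28 and 9.65 at P7, while C1ql1 lies between 8.07 and 8.85 at 6wk and between 9.93 and 10.33 at P7.

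Cbln3 encodes the cerebellin that pairs with Cbln1 in granule neurons and needs Cbln1 to be secreted. It read 12.16, 11.90 and 11.89 in 6wk replicates 1, 2 and 3, against 9.65, 6.28 and 8.79 in P7 replicates 1, 2 and 3. Every 6wk array was above every P7 array, and the lowest value was that of P7 replicate 2. The mean was 11.99 ± 0.15 at 6wk and 8.24 ± 1.76 at P7 (SD, n = 3 each), a log2 difference of 3.74 (SE 0.80, adjusted p = 0.0207 in limma). P7 replicate 2 was under the first quartile of its array (7.03), so the size of this difference is uncertain. Without P7 replicate 2 the difference was 2.76 (SE 0.25, adjusted p = 0.00135). Leaving out P7 replicate 3 ended the call (limma adjusted p = 0.0571), as did leaving out 6wk replicate 1, 2 or 3 (0.0759, 0.0697 and 0.0714). P7 replicate 2 stayed in each of these fits. It also stayed in the fit without P7 replicate 1, in which the call held (log2 difference 4.45, adjusted p = 0.00952).

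The bases before the start of Cbln3 and of Cbln4 are shown, the cerebellins with an entry in the RefSeq promoter table (build GRCm38.p6). The reasons were that the deposited study concerned a modification of cytosine and that the age differences of these genes had opposite signs. The difference of Cbln4 did not pass, however (limma adjusted p = 0.0949), and its groups overlapped. Each run is the 250 bases before the annotated start, 5′ to 3′ on the gene's own strand, with each CG dinucleotide in capitals.
Cbln3, chr14:55884257-55884506, minus strand: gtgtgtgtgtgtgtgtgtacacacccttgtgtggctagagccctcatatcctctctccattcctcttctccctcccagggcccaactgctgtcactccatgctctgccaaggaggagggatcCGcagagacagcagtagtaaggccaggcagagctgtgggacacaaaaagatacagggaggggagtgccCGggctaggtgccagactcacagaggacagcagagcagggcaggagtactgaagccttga
Cbln4, chr2:172043467-172043716, minus strand: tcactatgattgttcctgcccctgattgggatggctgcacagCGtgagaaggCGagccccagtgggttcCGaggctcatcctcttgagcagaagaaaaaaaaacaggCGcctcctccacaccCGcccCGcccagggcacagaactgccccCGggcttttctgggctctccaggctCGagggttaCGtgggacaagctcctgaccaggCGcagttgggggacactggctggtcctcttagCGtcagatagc
The Cbln3 window held 2 CG dinucleotides and the Cbln4 window 11, while the median over 32851 such windows was 6. Of all windows, 29.0% held 2 or fewer and 66.5% held 11 or fewer. The windows of C1ql2 and C1ql3, the other members in the table, held 20 and 23. A search on both strands found the TTGGCA motif of nuclear factor I proteins 1 time in the Cbln3 window and 0 times in the other 3, against 12.3% of all windows with at least 1 match. The E-box CANNTG occurred 1 time in each of the 4 windows, and 66.2% of all windows hold it. The motif TGACG, part of the cyclic AMP response element, occurred 1 time in the Cbln4 window and 0 times in the other 3, against 17.8% of all windows. The GC box GGGCGG occurred 2 times each in the C1ql3 and Cbln4 windows and 0 times in the others (32.7% of all windows), and the TATA box TATAAA in none of the 4 (12.4%). The motifs GGGCGG and TGACG each contain a CG dinucleotide. No cytosine modification was measured in the files used here.

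Cbln1, the founding cerebellin and partner of Cbln3, did not pass. It read 11.40, 11.12 and 11.15 in 6wk replicates 1 to 3, against 10.98, 8.64 and 10.36 in P7 replicates 1 to 3. All 6wk arrays were above all P7 arrays, and P7 replicate 1 lay close to the 6wk arrays while P7 replicate 2 lay far below. The log2 difference was 1.23 (SE 0.56, adjusted p of 0.171 in limma) with all arrays. Without P7 replicate 2 it was 0.55 (95% interval 0.06 to 1.04, adjusted p = 0.0944), so the size of this difference depended on that array.

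Among the arrays of the same age, the difference between Cbln1 and Cbln3 within an array varied less than either gene. The same held for Cbln2 and Cbln4, whose difference had an SD of 0.29 at 6wk and 0.20 at P7. Each of these 2 genes had an SD of at least 0.56 at 6wk and 1.01 at P7. Cbln1 minus Cbln3 was -0.76, -0.78 and -0.75 in the 6wk arrays, against 1.33, 2.36 and 1.57 in the P7 arrays. The groups did not overlap, and the change with age was -2.51, so Cbln3 was higher relative to Cbln1 at 6wk than at P7. An exact permutation test, two-sided, gave p = 0.1, the smallest that 3 against 3 arrays allow, and 0.131 after adjustment over the 21 pairs of members computed. This separation was not particular to the pair, since 16 of the 21 pairs did not overlap between the ages. The sign of such a difference within an array carries no meaning, since the 2 genes have different probes.

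C1ql1, the C1q-like ligand of climbing fibre neurons, fell with age. It read 8.07, 8.78 and 8.85 in 6wk replicates 1 to 3, against 9.93, 10.33 and 10.17 in P7 replicates 1 to 3. The groups did not overlap, and P7 replicate 2 lay near the other P7 arrays. The mean was 8.57 ± 0.43 at 6wk and 10.14 ± 0.20 at P7 (SD, n = 3 each), a log2 difference of -1.57 (SE 0.23, adjusted p of 0.00555 in limma), so that P7 was 2.97-fold higher than 6wk. Without P7 replicate 2 the difference was -1.48 (SE 0.25, adjusted p = 0.00855), and the call held in each of the 6 fits that left out an array (adjusted p from 0.00845 to 0.0310). Of the 6 measured markers of the inferior olive, where climbing fibres arise, and deep nuclei, 2 fell and 0 rose (median log2 difference -0.63). Among all genes, 13.4% fell and 8.26% rose. Foxp2 of this list is also on the list of Purkinje cell markers. Without P7 replicate 2, 1 fell, against 17.2% of all genes, and the median was -0.62. At an unadjusted p under 0.05 in limma with all arrays, 4 were lower and 0 higher, against 4002 and 2369 of 17858 genes. Falls were not particular to this list, since 4 of 9 measured granule neuron progenitor markers fell and 0 rose with all arrays (median -1.14). Which cells the C1ql1 RNA came from was not measured. The part of these markers in the difference of C1ql1 was not tested.

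Cbln2, which like Cbln1 binds neurexins and delta receptors, did not pass. It read 5.98, 7.58 and 7.26 in 6wk replicates 1 to 3, against 7.79, 10.17 and 9.16 in P7 replicates 1 to 3. The groups did not overlap, but P7 replicate 1 lay only slightly above the highest 6wk array, and 6wk replicate 1 was under the first quartile of its array (6.89). The log2 difference was -2.10 (SE 0.67, adjusted p of 0.0705 in limma), and -1.54 (SE 0.58, adjusted p = 0.105) without P7 replicate 2.

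Cbln4, a cerebellin that binds neurexins and the netrin receptor Dcc, did not pass either. It read 7.15, 8.20 and 8.00 in 6wk replicates 1 to 3, against 8.18, 10.17 and 9.47 in P7 replicates 1 to 3. P7 replicate 1 lay between 6wk replicates 2 and 3, so the groups overlapped. The log2 difference was -1.49 (SE 0.53, adjusted p of 0.0949 in limma), and -1.04 (SE 0.46, adjusted p = 0.152) without P7 replicate 2. Cbln2 and Cbln4 had the same order of arrays within each age, with replicate 2 highest and replicate 1 lowest.

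C1ql2, known as a presynaptic organiser of hippocampal mossy fibres, read 7.88, 8.13 and 8.24 in 6wk replicates 1 to 3, against 8.04, 9.41 and 8.88 in P7 replicates 1 to 3. P7 replicate 1 fell inside the 6wk range, and the log2 difference of -0.69 did not pass (SE 0.33, adjusted p of 0.196 in limma; -0.37 and 0.339 without P7 replicate 2). C1ql3, its close relative, had the smallest difference of the members. It read 7.91, 8.21 and 8.32 in 6wk replicates 1 to 3, against 8.33, 8.42 and 8.44 in P7 replicates 1 to 3. The groups were barely apart, and the log2 difference of -0.25 did not pass (95% interval -0.55 to 0.05, adjusted p = 0.203; -0.24 and 0.263 without P7 replicate 2).

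**Figure D2:**
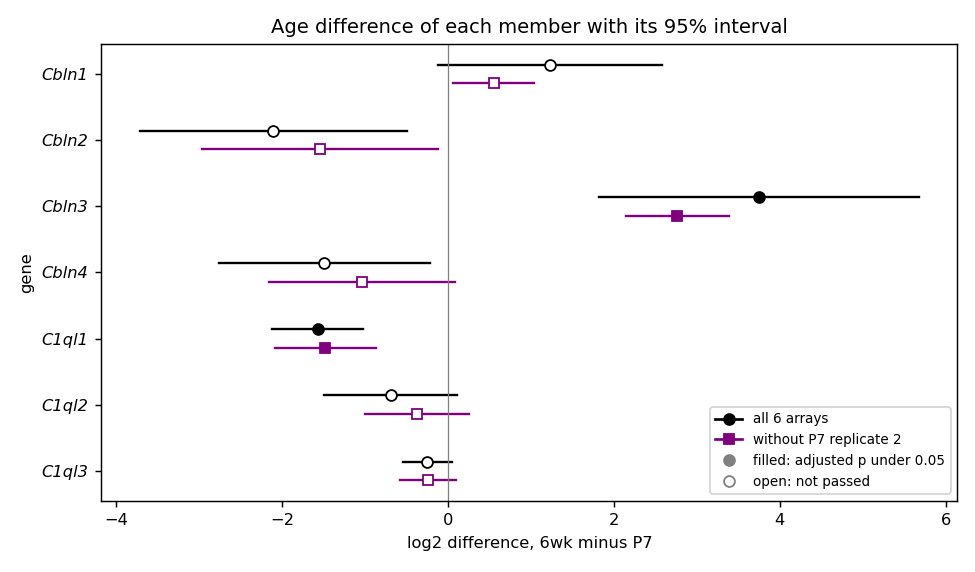
Log2 difference 6wk minus P7 of each member with its 95% interval from limma, for all 6 arrays (circles) and without P7 replicate 2 (squares), filled where the adjusted p is under 0.05. Cbln3 and C1ql1 are filled in both fits, at 3.74 and 2.76 and at -1.57 and -1.48, and every member keeps its direction.

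The P7 arrays set all members but C1ql3 in a common order or its reverse. Cbln1 and Cbln3 were highest in P7 replicate 1, intermediate in replicate 3 and lowest in replicate 2, while Cbln2, Cbln4, C1ql1 and C1ql2 had the reverse order. P7 replicate 2 differed from P7 replicate 1 by -3.38 in Cbln3, -2.35 in Cbln1, 2.38 in Cbln2, 2.00 in Cbln4 and 1.37 in C1ql2, but by 0.40 in C1ql1 and 0.08 in C1ql3. The range over the P7 arrays was larger than the difference between the ages in Cbln1, Cbln2, Cbln4 and C1ql2, and smaller in Cbln3, C1ql1 and C1ql3.

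Most lists of cell type markers followed this order of the P7 arrays or its reverse. The marker lists share some genes, which count in each list that holds them. Car8 is on the granule and Purkinje lists, Foxp2 on the Purkinje and olive lists, and Otx2 on the neighbouring tissue and choroid plexus lists. Pvalb of the Purkinje list and Slc6a5 of the neighbouring tissue list are also on the interneuron list. Of 11 mature granule neuron markers measured, 9 were lower in P7 replicate 2 than in both other P7 arrays, with a median of -1.46 against P7 replicate 1; their mean level ranged from 10.46 to 10.68 at 6wk and from 8.11 to 9.73 at P7. Of 10 Purkinje cell markers 7 were lower, with a median of -1.52, and their mean level ranged from 9.97 to 10.18 at 6wk and from 8.38 to 9.68 at P7. Of 12 markers of tissue next to the cerebellum, such as the dopamine transporter Slc6a3, 9 were higher in P7 replicate 2, with a median of 1.08; their mean level ranged from 7.19 to 7.87 at 6wk and from 7.38 to 8.83 at P7. Slc6a3 read 6.73, 7.09 and 6.92 in 6wk replicates 1 to 3, against 6.78, 10.76 and 9.84 in P7 replicates 1 to 3. Of 6 markers of the inferior olive, the source of climbing fibres, and deep nuclei, 4 were higher and 0 lower in P7 replicate 2, with a median of 0.43. Being higher in P7 replicate 2 was not particular to these lists. Of 34 genes for other proteins that organise synapses across the cleft, 26 were higher and 5 lower on that array. The share over all genes was not counted. The median of P7 replicate 2 minus P7 replicate 1 was -1.23 for granule neuron progenitor, -1.60 for choroid plexus, -0.53 for Bergmann glia and astrocyte and 0.77 for GABAergic interneuron markers. Cbln1 and Cbln3 ran in the order of the granule and Purkinje lists, and Cbln2, Cbln4, C1ql1 and C1ql2 in that of the list of neighbouring tissue. Neither order was particular to these lists. By mean level, the progenitor, choroid plexus and Bergmann glia lists had the order of the granule list. The GABAergic interneuron, olive and deep nuclei, and microglia lists had that of neighbouring tissue. The oligodendrocyte and endothelial cell lists had neither order. Their mean levels in P7 replicates 1, 2 and 3 were 9.31, 9.22 and 9.48, and 8.42, 8.39 and 8.48. Between the ages, 6 of the 11 granule markers rose and 0 fell (median log2 difference 1.12). Of the 10 Purkinje markers 3 rose and 0 fell (0.89), and of the 12 markers of neighbouring tissue 0 rose and 2 fell (-0.69). The 2 that fell, with and without P7 replicate 2, were En1 and Otx2. Slc6a3 did not pass (limma adjusted p = 0.264 without P7 replicate 2). Of 9 granule neuron progenitor markers 4 fell and 0 rose (-1.14). Among all genes 8.26% rose and 13.4% fell. Without P7 replicate 2, the rises were 8 of the granule markers (median 1.04) and 5 of the Purkinje markers (0.55). The falls were then 2 of the neighbouring tissue markers (-0.54) and 7 of the progenitor markers (-1.68). In that fit 9.56% of all genes rose and 17.2% fell. At an unadjusted p under 0.05 with all arrays in limma, 8 granule markers were higher and 0 lower, and 5 Purkinje markers higher and 1 lower. In the same fit, 0 neighbouring tissue markers were higher and 3 lower, and 0 progenitor markers higher and 7 lower. Of the 17858 genes, 2369 were higher and 4002 lower at that threshold. The share of neighbouring tissue markers that were lower is close to that of all genes. The part of these markers in the members' differences was not tested.

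**Figure D3:**
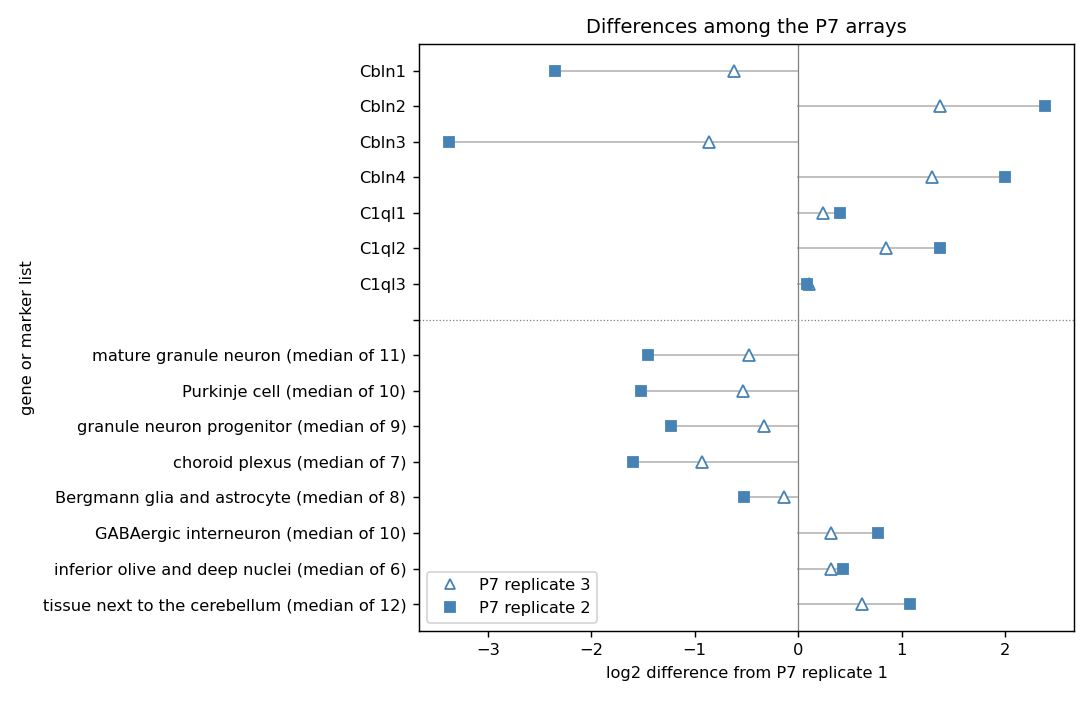
Log2 difference of P7 replicate 3 (open triangles) and P7 replicate 2 (squares) from P7 replicate 1, for each member above the dotted line and for the median of each marker list below it. Cbln1, Cbln3 and the granule and Purkinje lists lie to the left of 0, and Cbln2, Cbln4, C1ql2 and the list of tissue next to the cerebellum to the right, while C1ql1 and C1ql3 stay within 0.40.

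Among the 6wk arrays, replicate 1 differed from the others in the sense opposite to P7 replicate 2. Against the mean of 6wk replicates 2 and 3 it was lower by a log2 difference of -1.44 in Cbln2, -0.95 in Cbln4 and -0.74 in C1ql1, and higher by 0.26 in Cbln1 and 0.27 in Cbln3. The markers of tissue next to the cerebellum differed by a median of -0.53 in that array, and the mature granule neuron markers by 0.22.

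Genes with the most similar profile over the 6 arrays were found by Pearson correlation, taken as a description, since all points share the same arrays and age groups. The closest to Cbln3 were Homer3, a Purkinje cell scaffold protein (r = 0.999), Slc17a7, a vesicular glutamate transporter of granule neurons (0.998), and Sphkap (0.997), all of which rose (log2 differences 1.09, 1.68 and 1.14, limma adjusted p from 0.0223 to 0.0321). The closest to Cbln1 were Pcp2, Il16 and Cnpy1 (r from 0.9991 to 0.9994), which did not pass. The closest to C1ql1 were P4ha3, the retinoid-binding protein gene Crabp1 and Rasgef1b (r from 0.997 to 0.999), all of which fell, Crabp1 by 2.02 (adjusted p = 0.00332). Cbln2 was closest to Ldb2, Slc35f4 and Elfn1, Cbln4 to Gabrg3, Zcchc12 and Tox, and C1ql2 to Npas1, Grin2d and Cartpt, with r of at least 0.996, and none of these 9 genes passed. C1ql3 had the weakest matches, Limk1, Gabra5 and 1700001E04Rik (r from 0.959 to 0.975), which did not pass. Only genes with an SD of at least 0.5 were searched, while C1ql3 itself ranged only from 7.91 to 8.44. Genes that vary as little as C1ql3 were therefore left out of its search.

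Of 12 listed receptors and partners 10 were measured, and 3 fell, 0 rose and 7 did not pass, against the 8.26% of all genes that rose and 13.4% that fell. At an unadjusted p under 0.05 in the same limma fit, 4 were lower and 0 higher, against 4002 and 2369 of 17858 genes. The median log2 difference of the list was -0.17, and without P7 replicate 2 it was -0.15 with 4 falls and 0 rises. In that fit 17.2% of all genes fell and 9.56% rose.

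Dcc, the netrin receptor that also binds Cbln4, fell most among the partners. It read 6.53, 7.38 and 7.15 in 6wk replicates 1 to 3, against 10.05, 9.39 and 9.78 in P7 replicates 1 to 3. The groups lay far apart, with a log2 difference of -2.72 (SE 0.26, adjusted p of 0.00159 in limma), and P7 replicate 2 was the lowest P7 array. Neo1, the related receptor neogenin, read 10.37, 10.37 and 10.31 at 6wk, against 11.44, 10.83 and 11.25 at P7, a log2 difference of -0.82 (SE 0.16, adjusted p = 0.0155). Leaving out P7 replicate 3 (adjusted p = 0.0700) or 6wk replicate 1, 2 or 3 (0.0582, 0.0578 and 0.0667) ended this call.

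Of the adhesion receptors of the Adgrb family, Adgrb2 fell. It read 9.62, 9.71 and 9.61 in 6wk replicates 1 to 3, against 10.22, 10.45 and 10.37 in P7 replicates 1 to 3, a log2 difference of -0.70 (SE 0.09, adjusted p of 0.00412 in limma). Adgrb3, the receptor of C1ql1, read 10.38, 10.22 and 10.19 at 6wk, against 10.19, 10.09 and 10.11 at P7, and its difference of 0.13 did not pass (adjusted p = 0.344). Adgrb1 differed by -0.09 with overlapping groups (adjusted p = 0.808), a sign that turned without P7 replicate 2 (0.12) and after centring (0.01).

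Grid1, the delta receptor GluD1 that binds cerebellins, read 8.84, 9.07 and 8.99 in 6wk replicates 1 to 3, against 9.34, 10.44 and 9.85 in P7 replicates 1 to 3. The groups did not overlap, but the log2 difference of -0.91 did not pass (SE 0.27, adjusted p of 0.0540 in limma); without P7 replicate 2 it was -0.63 and passed (adjusted p = 0.0392). It also passed without P7 replicate 1 (adjusted p = 0.0103), and in other fits it lay on either side of the threshold. The neurexin genes Nrxn2 and Nrxn3, whose proteins bind cerebellins from the presynaptic side, differed by 0.03 and 0.01 and did not pass (adjusted p = 0.950 and 0.967). Their values overlapped between the ages, and both signs turned in some fits that left out an array. The kainate receptor subunit genes Grik2 and Grik4 differed by 0.04 and -0.25 and did not pass (adjusted p = 0.918 and 0.335), and Grik2 turned to -0.19 without P7 replicate 2.

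**Figure D4:**
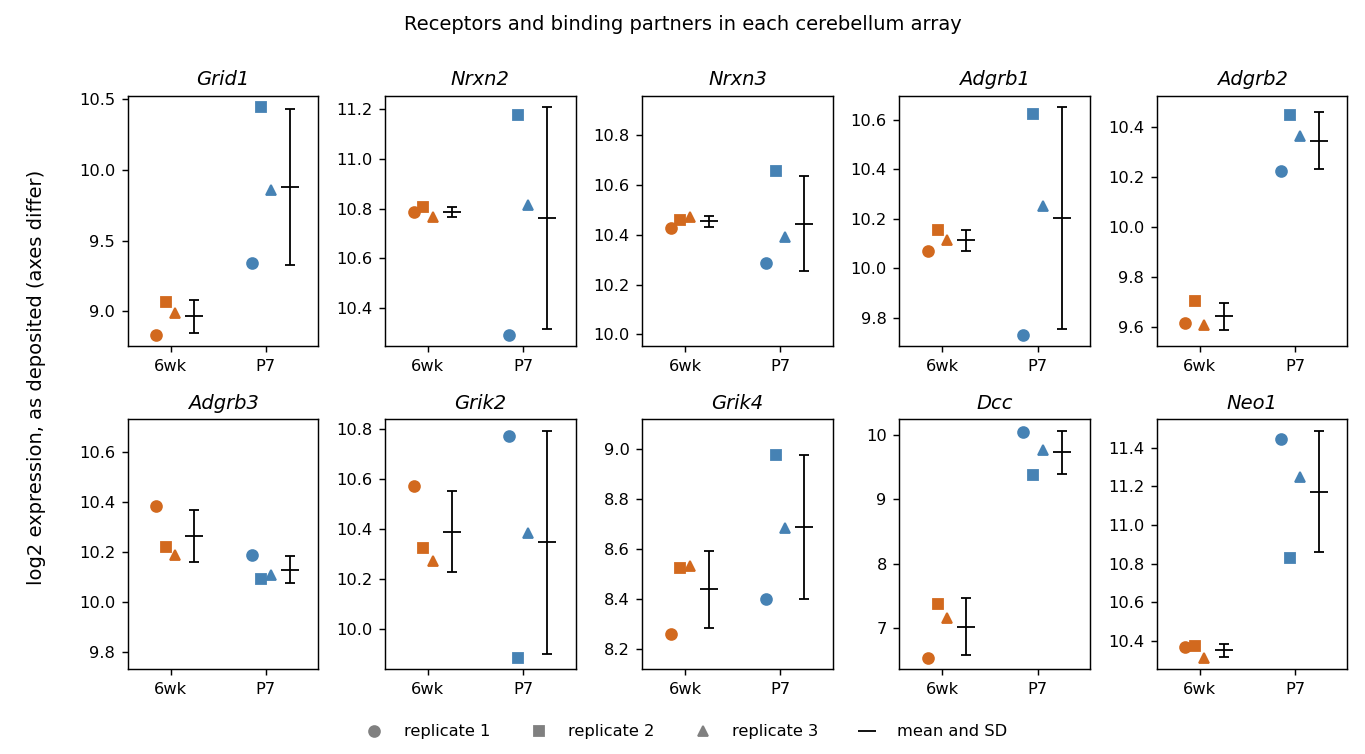
Deposited log2 expression of the 10 measured receptors and binding partners in every array, 6wk left and P7 right in each panel, with replicates by marker shape and the group mean and SD as a bar; the vertical scales differ. Dcc, Neo1 and Adgrb2 lie lower in all 6wk arrays, and Nrxn2, Nrxn3, Adgrb1, Adgrb3, Grik2 and Grik4 overlap between the ages.

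Other genes with a C1q domain fell in 6 of 23 measured cases and rose in 0, with a median log2 difference of -0.25, against the 13.4% of all genes that fell and 8.26% that rose. The absence of rises depended on the scaling, since 2 rose and 5 fell once array medians were set equal, and 1 rose and 6 fell after quantile normalization. At an unadjusted p under 0.05 in the same limma fit, 10 were lower and 2 higher, against 4002 and 2369 of the 17858 genes. C1ql4, the remaining C1q-like gene, read 4.67, 6.56 and 5.85 in 6wk replicates 1 to 3, against 6.69, 9.62 and 9.06 in P7 replicates 1 to 3. It was named after its values were seen, and its difference of -2.76 did not pass (SE 0.83, adjusted p of 0.0600 in limma; -2.18 and 0.0999 without P7 replicate 2). The calls with the largest differences were Mmrn1, a multimerin (-1.07), C1qtnf6 (-0.91, adjusted p = 0.00303) and the collagen gene Col8a1 (-0.58). The calls of Mmrn1 and Col8a1 were each lost in 3 of the 6 fits that left out an array (adjusted p up to 0.0643 and 0.0779). The complement genes C1qa, C1qb and C1qc differed by -0.27, -0.25 and -0.25 and did not pass.

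Among 34 other genes whose proteins organise synapses across the cleft, 7 rose and 8 fell (median log2 difference -0.20), against 8.26% and 13.4% of all genes. Without P7 replicate 2, 10 rose and 9 fell (-0.14), against 9.56% and 17.2% of all genes. The largest rises were Nptx1, a neuronal pentraxin (2.03, limma adjusted p = 0.00141), the netrin-G ligand gene Lrrc4 (0.76) and the neurotrophin receptor gene Ntrk3 (0.67). The largest falls were Lrrtm1 (-1.48), the latrophilin gene Adgrl2 (-1.41, adjusted p = 0.00556) and the pentraxin Nptx2 (-1.36). The calls of Lrrtm1 and Nptx2 were lost on leaving out P7 replicate 3, or 6wk replicate 1, 2 or 3 (adjusted p up to 0.120 and 0.132). Of 9 measured genes for intracellular proteins of the parallel fibre synapse, Homer3 (1.09) and the phosphatase Ptpn4 (0.63) rose, 0 fell and 7 did not pass. Among all genes 8.26% rose and 13.4% fell. At an unadjusted p under 0.05 in limma 3 of the 9 were higher and 0 lower, against 2369 and 4002 of 17858 genes. The call of Homer3 ended on leaving out P7 replicate 3, or 6wk replicate 1, 2 or 3 (adjusted p 0.0821 to 0.105), and that of Ptpn4 on leaving out P7 replicate 3 (0.0511).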

How the data were processed

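The deposited values are log2 expression values. The submitters' processing notes name RMA, Affymetrix Power Tools and mm9, without versions or filters. The table has 23750 rows, of which 18463 carry 1 gene symbol, 1799 several and 3488 none in the array annotation; of several rows per gene, the one with the largest average was used, giving 17858 genes. The difference 6wk minus P7 was tested per gene, two-sided and without a block, by eBayes in limma 3.58.1 under R 4.3.3. P-values were adjusted over all genes by Benjamini-Hochberg and called under 0.05. The steps were tested on simulated data.

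The members and gene lists were chosen with earlier results of these data known. Named are all members, all measured receptors and partners, up to 3 rises and 3 falls per other list, and per member the 3 genes with the highest correlation among genes with a mean in the upper 3 quartiles and an SD of at least 0.5. Marker lists described differences among arrays. Alternatives left out each array, added a replicate block or array weights, rescaled the arrays, dropped dim rows (mean under 6.97), changed eBayes or averaged a gene's rows. The number of arrays limits the precision. Promoter windows came from RefSeq, build GRCm38.p6; gene coordinates were not used. Figures were drawn with matplotlib 3.10.9.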

Additional observations from a re-analysis of the deposited data

How the results depend on the processing

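Centring, a further quantile normalization, dropping dim rows, trend and robust eBayes and averaging a gene's rows each left the same 2 calls among the members, Cbln3 and C1ql1, and no member turned direction in any fit. When single arrays were left out, the members called numbered 1 to 6, genes called overall 1647 to 4781, and other C1q-domain genes called 1 to 9. The log2 differences then ranged from 0.55 to 1.72 for Cbln1, -2.73 to -1.54 for Cbln2, 2.76 to 4.45 for Cbln3, -2.04 to -1.04 for Cbln4 and -1.06 to -0.37 for C1ql2. The 6 calls came without P7 replicate 1, when Cbln1 (adjusted p = 0.0487), Cbln2 (0.0188), Cbln4 (0.0143) and C1ql2 (0.0149) also passed.

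With the replicate block 4 members were called, since Cbln2 (-2.10, adjusted p = 0.00715) and Cbln4 (-1.49, 0.0143) passed as well; all genes called then numbered 3273, against 3870 without it. The numbers share no stated animal or batch, deviations from the age means correlated at 0.274, 0.141 and -0.056 for numbers 1, 2 and 3, and 6wk replicate 3 correlated best with P7 replicate 2 (0.206). Array weights called 7 members, 11358 genes, 6 partners and 14 other C1q-domain genes, with differences of 0.84 for Cbln1, -2.09 for Cbln2, -1.60 for Cbln4, -0.75 for C1ql2 and -0.24 for C1ql3. That estimate did not converge and gave P7 replicate 3 a weight of 341 against at most 0.9995 for the others, so it rests on 1 array at P7. Without dim rows 3 other C1q-domain genes were called, since dim genes of that list were left out.

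Grid1 passed with the replicate block (adjusted p = 0.0361), without dim rows (0.0452), with trend and robust eBayes (0.0476), with array weights (0.000125) and without P7 replicate 1 or 2 (0.0103 and 0.0392). It did not pass after centring (0.0795), quantile normalization (0.0877), averaging rows (0.0541) or leaving out any other array (0.121 to 0.159). Among partners that did not pass, signs turned when single arrays were left out, with ranges of -0.21 to 0.23 for Nrxn2, -0.069 to 0.11 for Nrxn3, -0.33 to 0.12 for Adgrb1 and -0.19 to 0.26 for Grik2. Array weights turned Nrxn2 to -0.032 and Grik2 to -0.030, and Adgrb1 turned to 0.0080 after centring and 0.0020 after quantile normalization. The causes were not tested. Background signal was not analysed here, so differences of genes near the low end of an array are uncertain in size.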
